A study of Mus musculus with 15 samples.

Results

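The genes for the proteins of the cytosolic ribosome were followed through the migration of mouse mammary epithelium. They were taken from the gene table by name: Rpl or Rps with a number and an optional letter suffix, plus Rpsa, Rplp0, Rplp1 and Rplp2, with names ending in -ps left out. The rule gave 89 of the 54456 rows. Of these, 83 were coding genes in the GENCODE M21 annotation, 5 were processed copies that carry gene-like names (Rpl32l, Rpl6l, Rps3a2, Rps3a3 and Rps12l1) and 1, Rps4l, was of another type. After the filter on low counts 85 were tested. The other 4 were Rps12l1 and Rpl10l, each with 0 counts in all 15 libraries together, Rpl3l with 30 counts and Rpl39l with 34.

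Messenger RNA was sequenced from wild-type (WT) organoids of mammary gland epithelium, small cultured pieces of the gland's lining, which were exposed to beads soaked in FGF10, a fibroblast growth factor, or in bovine serum albumin (BSA). The series asks whether migrating mammary epithelium turns mesenchymal, and ribosomal protein genes are read here from the same libraries. Groups of 3 libraries each were collected at the start (0 h), at 36 h with BSA, at 36 h with FGF10, at 72 h with BSA and at 72 h with FGF10. All groups share the WT genotype and the culture in DMEM/F12 with L-Ala-Gln, ITS and P/S, and the 0 h group is the common start of both arms. The FGF10 72 h libraries are titled FGF0, and their treatment label names FGF10. The ages of the mice and the number of mice or cultures behind the libraries are not given in the sources used here, so p-values measure the spread between these libraries, which may be technical.

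Each ribosome is built from a small and a large subunit, and each ribosomal protein (named Rps for the small and Rpl for the large subunit) is present in a single copy apart from the acidic stalk proteins. In mammals the messenger RNAs of nearly all of these genes begin with a pyrimidine tract, the TOP motif, through which growth factor and nutrient signals acting by mTORC1 and LARP1 control their translation. The genes are also known for their many processed pseudogenes, intronless copies of the messenger RNA scattered through the genome, and this bears on every count below.

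Most fragments of these genes' sequences were not counted on the genes themselves. The fragment counts had been assigned by gene name, with no option recorded for fragments that fit several places. By sequence match to a member or by a -ps name, 1831 rows were assigned to a member as processed copies, of which 1247 held counts. The copies that are not themselves members held 6173869 counts, against 3132313 on the 89 member rows. The member rows, which here include the 5 processed copies with gene-like names, thus held 33.7% of the counts of gene plus copies. In the own share of single genes, below, those 5 rows count as copies. Among the 82 coding members with counts the own share had a median of 11.2%. It was under 10% in 40 members, 10 to 80% in 25 and at least 80% in 17. Whether a fragment counted on a copy came from the gene's own messenger RNA or from the copy was not tested.

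The smallest own share was that of Rpl23a, a large-subunit protein near the exit of the nascent chain, with 309 counts over all libraries. Its copy Rpl23a-ps3 held 52605 counts and was 99.8% identical over 468 bases. Rpl5, which with Rpl11 and 5S RNA forms the particle that binds the p53 regulator Mdm2, held 1.59% of its own and its copies' counts. Near the other end Rps3, which lines the mRNA entry and also acts in DNA repair, held 278776 counts against 151 on its 2 copies.

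The sequences of 3 genes at an exon junction show how the closest or most counted copy relates to the gene. Each line gives 60 bases of coding sequence, 30 on either side of a junction between exons of the gene, from the GENCODE M21 transcripts, 5′ to 3′, followed by the same stretch of a copy, which has 1 exon. Capitals mark bases that differ between the lines of a pair.
Rpl5: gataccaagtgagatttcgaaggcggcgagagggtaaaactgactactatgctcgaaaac
Gm15500: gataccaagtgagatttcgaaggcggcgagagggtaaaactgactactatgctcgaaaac
Rps19: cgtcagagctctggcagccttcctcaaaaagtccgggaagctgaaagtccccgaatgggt
Rps19-ps6: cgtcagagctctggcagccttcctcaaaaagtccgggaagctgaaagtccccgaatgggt
Rps3: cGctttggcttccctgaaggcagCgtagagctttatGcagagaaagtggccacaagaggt
Gm8130: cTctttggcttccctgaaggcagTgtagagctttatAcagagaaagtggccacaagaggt

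In these windows Rpl5 and its copy Gm15500 had 0 differences, as did Rps19 and Rps19-ps6, whereas Rps3 and Gm8130 had 3. Over the whole alignment the identities were 100% for Gm15500 (894 bases), 98.9% for Rps19-ps6 (438 bases) and 95.8% for Gm8130 (570 bases). Gm15500 held 136605 counts and Rps19-ps6 held 243220, while Gm8130 held 91. Across the 79 coding members with counts and at least 1 matched copy, the own share fell with the identity of the closest copy (Spearman correlation of -0.66 across genes, which are not independent replicates). The 63 members whose closest copy was at least 98% identical had a median own share of 7.13%, and the 16 others 92.2%. The closest copy is here the one with the best alignment score, so another copy can be more identical over fewer bases. Own shares ran up to 99.4% in the former and down to 8.56% in the latter. The first value is that of Rpl8, whose 1 matched copy aligned over 112 bases. The second is that of Rpl21, whose closest copy Rpl21-ps7 was 97.9% identical, while its copy Rpl21-ps15 was 99.4% identical over 483 bases.

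**Figure D1:**
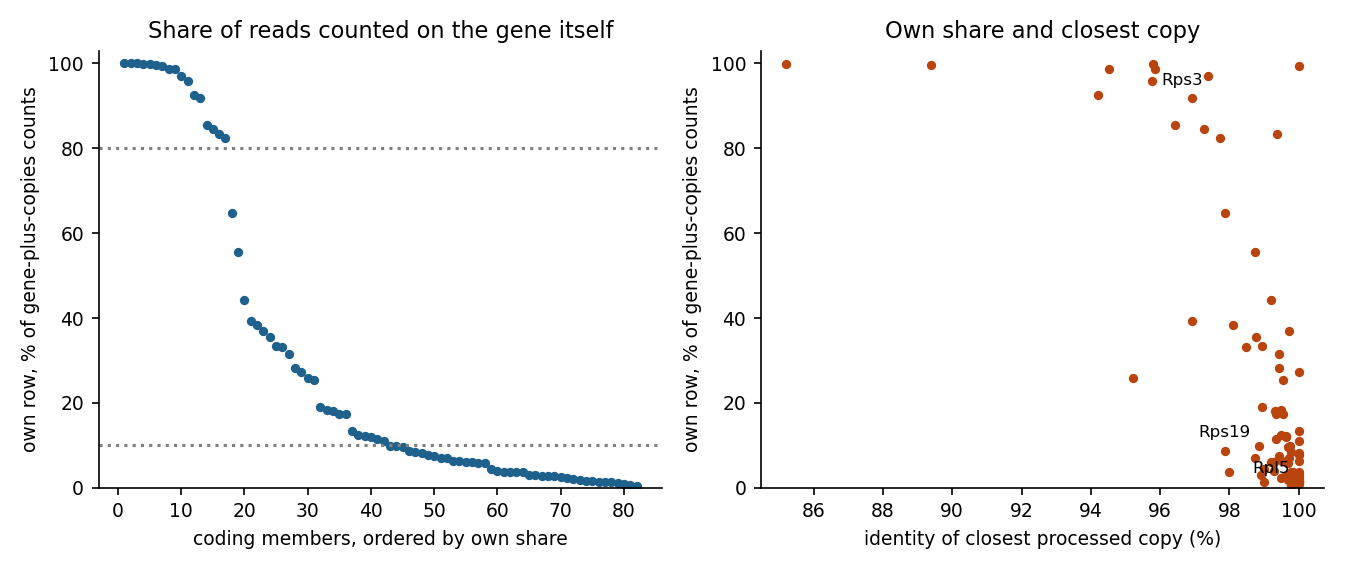
Share of a gene's counts that lie on its own row (% of the counts on the gene plus its matched processed copies), for 82 coding members in descending order (left, dotted lines at 80% and 10%) and against the identity of the closest copy for 79 members (right). A group of 17 members lies at or above 80%, and members with a closest copy of at least 98% identity lie mostly below 10%.

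For this reason counts of calls are given for the members' own rows and for family sums, which add the counts of the copies, and the sum is given beside the row for many of the members named. There were 84 such sums, 81 of them tested. Of the 15 tested members with an own share of at least 80%, 6 belong to the small subunit (Rps3, Rps9, Rps15 and Rps27l among them) and 9 to the large subunit or its stalk (Rpl4, Rpl8, Rpl22, Rpl29, Rpl32, Rpl41, Rpl7l1, Rplp1 and Rplp2).

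Levels between genes were compared per length, as the mean CPM (each library's counts scaled to a common total after TMM normalisation) divided by the exon length in kilobases. Rpl32 stood highest with 809, and among the next were the processed copy Rps3a2 with 697, Rpl41 (the smallest ribosomal protein) with 661 and Rps27l, a paralog of Rps27 that p53 induces, with 629. The lowest tested were Rpl23a with 1.47, Rps10 with 1.57, Rpl24 with 1.66, Rpl35a with 1.85 and Rpl5 with 2.27. All of the 5 lowest had own shares under 10%, so this order ranks the rows and not the output of the genes.

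The libraries ranged from 11965322 to 24261233 counts. Replicate 4 of FGF10 36 h held 1.11% mitochondrial counts, against 2.02 to 4.55% elsewhere, and had the highest share of member counts of its group, and the BSA 72 h libraries labelled 2_1 and 2_2 share a leading number, which leaves unclear whether they are separate cultures. The summed CPM of 12 mammary epithelial markers ran from 16902 to 33681. Marker sums of other cell types differed between groups. In the 0 h libraries 18 immune markers summed to 2210.0 to 2625 CPM and 5 erythroid markers to 43.3 to 133, against at most 875 and 3.92 later, and the part of this in the comparisons with 0 h was not tested.

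The members took 1.31% ± 0.205 of all counts at 0 h (SD, n = 3), with single libraries at 1.55, 1.19 and 1.19%. They took 1.28% ± 0.0671 with BSA at 36 h (1.26, 1.36 and 1.23%) and 1.32% ± 0.220 with FGF10 at 36 h (1.29, 1.12 and 1.56%). At 72 h they took 1.03% ± 0.0581 with BSA (1.04, 1.09 and 0.970%) and 1.26% ± 0.0642 with FGF10 (1.32, 1.19 and 1.27%). All 3 BSA 72 h libraries were below every other library. With copies added BSA at 72 h was also the lowest, at 3.04% ± 0.178, and the other groups ran from 3.74% ± 0.191 for FGF10 at 72 h to 4.004% ± 0.571 at 0 h. The members' rows held between 32.5 and 34.6% of the counts of gene plus copies in every library.

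**Figure D2:**
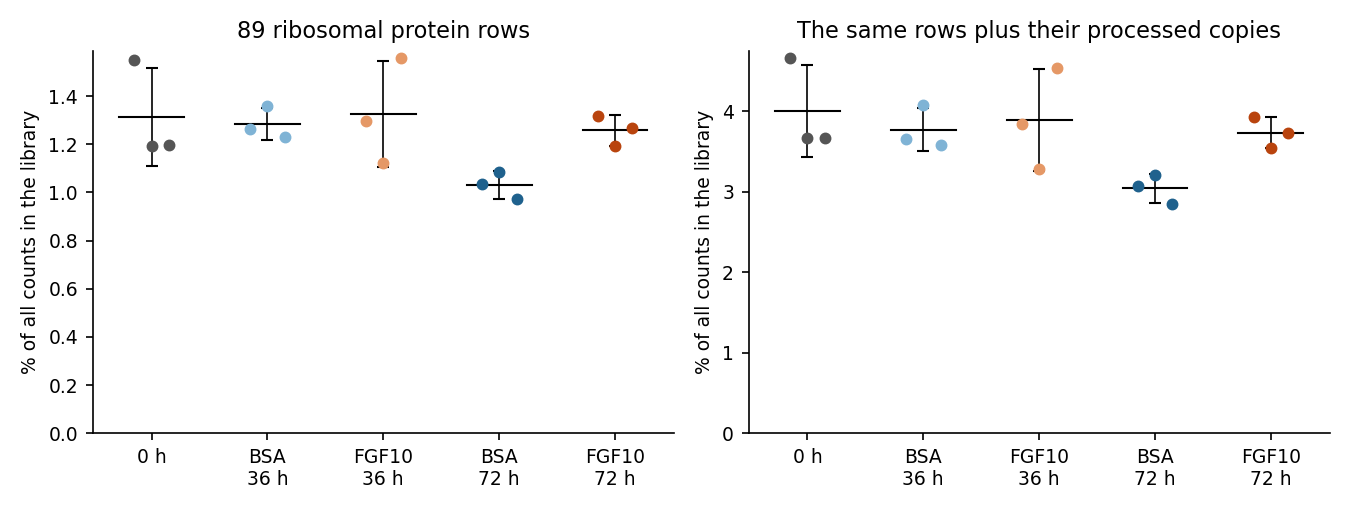
Percent of all counts in each library on the 89 ribosomal protein rows (left) and on these rows plus their processed copies (right). Points are libraries, lines are group means and bars SD (n = 3), and the 3 BSA 72 h libraries, at 0.970 to 1.09% on the left, lie below all others.

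The comparison that shares the time in culture is FGF10 against BSA at the same hour. At 72 h the arms also differed in marker sums of cell types, given below. At 72 h, of the 85 members tested 6 rose and 0 fell, against 3.01% and 2.98% of all 18140 genes. The median log2 difference of the members was 0.31, against -0.01 over all genes, and 74 of 85 lay above 0. Added over gene and copies, 12 of 81 sums rose and 0 fell, against 2.97% and 2.89% of all rows of that fit, with a median of 0.45 and 79 of 81 above 0. The groups did not overlap for 47 of 85 members, against 43.7% of all genes.

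The largest of these rises was that of Rps2, a small-subunit protein at the mRNA entry. Its row read 329, 282 and 317 CPM with FGF10 and 175, 202 and 182 with BSA, so the groups did not overlap. The log2 difference was 0.73 ± 0.15 (SE, adjusted p = 0.0138 by the edgeR quasi-likelihood test), a 1.66-fold rise. As only 31.5% of the Rps2 family's counts lie on this row, the family sum is also given: 1025, 943 and 964 CPM against 546, 589.6 and 553, with a log2 difference of 0.80 and an adjusted p of 0.0139.

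Rpl32, a large-subunit protein with an own share of 92.6%, read 954, 853 and 793 CPM with FGF10 and 549.6, 625 and 541 with BSA. It rose by 0.60 ± 0.16 on the log2 scale (adjusted p = 0.0423), and no library of one group reached the other. Rps3a1, a small-subunit protein, rose by 0.58 ± 0.15 (adjusted p = 0.0356), from 72.0 ± 4.17 to 107 ± 4.46 CPM (SD, n = 3). The row of its processed copy Rps3a2 rose by 0.56 ± 0.15 (adjusted p = 0.0365), from 400.1 ± 3.18 to 588 ± 27.2 CPM. The remaining called rows were Rps25, which some viral and cellular internal ribosome entry sites need (log2 difference 0.58 ± 0.15), and Rpl7 (0.53 ± 0.14).

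Of the 5 called rows that also have a family sum, 3 were called by the sum: Rps2, Rpl32 (0.60, adjusted p = 0.0451) and Rps25 (0.62, adjusted p = 0.037). The sum of Rps3a1 read 894, 838 and 818 CPM with FGF10 against 589.6, 601 and 574, with a log2 difference of 0.53 ± 0.15 and an adjusted p of 0.050001, just over the threshold. The sum of Rpl7 read 758, 677 and 694 CPM against 524, 517 and 469.5, with 0.50 ± 0.16 and an adjusted p of 0.0804. Neither pair of groups overlapped.

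The other members with a high own share lay on the same side without passing the threshold. Rpl4 read 1086, 991 and 1043 CPM with FGF10 and 701, 701 and 694 with BSA, groups that did not overlap, with a log2 difference of 0.57 ± 0.17 and an adjusted p of 0.0573. Rpl41 gave 0.62 ± 0.19 (adjusted p = 0.0646), Rps9 0.59 ± 0.19 (0.0728) and Rps3 0.40 ± 0.16 (0.143). In all 15 of the tested members with an own share of at least 80% the difference was above 0, and 1 of 15 was called. In the 40 with an own share under 10% it was above 0 in 31 and none was called. Of all 18140 genes 8915 lay above 0 and 3.01% were called higher.

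Family sums that rose at 72 h though their own rows were not called were those of Rpl15, Rpl37a, Rpl22l1, Rpl27, Rpl13, Rps13, Rpl23a, Rpl11 and Rps6. Rps6, the protein that S6 kinase phosphorylates downstream of mTORC1, is an example. Its own row held 1.64% of its counts and read 15.3, 15.8 and 15.9 CPM with FGF10 against 12.8, 8.96 and 9.64 with BSA. Its family sum read 974, 919 and 926 CPM against 599, 608 and 587, with a log2 difference of 0.65 ± 0.18 (adjusted p = 0.045).

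The calls at 72 h rest on few libraries. When replicates 2_1 and 2_2 of BSA 72 h were pooled as 1 library, 0 members and 0 family sums were called. By leaving out single libraries, 0 members were called without BSA 72 h replicate 2_1, and 0 sums without BSA 72 h replicate 2_2. Without FGF10 36 h replicate 4, which is in neither group but enters the shared spread, 20 members and 39 sums rose. Fits by other tools called more, 33 members and 65 sums with limma voom and 14 members with DESeq2, and a fit of these 2 groups alone called 37. The shares of all genes called in these fits, and in those with fewer libraries, are not given. These counts therefore show how the calls vary and cannot be set against all genes.

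Marker sums of other cell types moved with this contrast. The 12 adipocyte markers summed to 433 to 444 CPM in BSA 72 h and 15.3 to 81.1 in FGF10 72 h, and 5 of 10 tested were lower with FGF10. The 18 immune markers summed to 665 to 875 and 352 to 563 CPM, with 10 of 15 tested lower. The 15 endothelial markers summed to 135 to 322 and 25.3 to 48.4 CPM, with 3 of 15 lower, and the 12 fibroblast markers to 655 to 773 and 218 to 493, with 0 of 12 lower and 1 higher. Pck1 was at 0 in all 6 of these libraries and Cd3e in the 3 with FGF10, while the defining markers Adipoq (17.1 to 25.04 CPM with BSA, 0 to 2.76 with FGF10), Ptprc (1.44 to 2.003 and 0.122 to 0.591) and Pecam1 (7.48 to 21.5 and 0.487 to 2.12) were low. The 12 mammary epithelial markers summed to 17050.0 to 18844 with BSA and 28812 to 31218 with FGF10. The part of these differences in the ribosomal protein result was not tested, and in bulk RNA fewer cells of a type and less RNA per cell cannot be told apart.

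At 36 h the arms were close. With FGF10 against BSA 0 of 85 members rose and 0 fell in edgeR, against 0.954% and 1.39% of all genes. An unadjusted p under 0.05 by edgeR was seen in 5 of 85 members and in 3398 of 18140 genes. DESeq2 and limma voom also called 0 members. Of the family sums 0 rose and 0 fell, against 0.992% and 1.41%. The members' median log2 difference was 0.13 and their values ran from -0.36 for Rps28 to 0.71 for Rps29, whose adjusted p was 0.179. Rpl32 read 797, 634 and 732 CPM with FGF10 and 659, 886 and 686 with BSA at this time, groups that overlapped.

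The change of the FGF10 effect between the times was tested by an interaction term. It called 0 of 85 members in either direction, and also 0% and 0% of all genes. An unadjusted p under 0.05 by edgeR was seen in 13 members and in 998 of 18140 genes. The members' median was 0.17. The highest value was that of Rps2, 0.81 ± 0.21, with an adjusted p of 0.753. A difference between the times in the effect of FGF10 on these genes was therefore not shown.

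**Figure D3:**
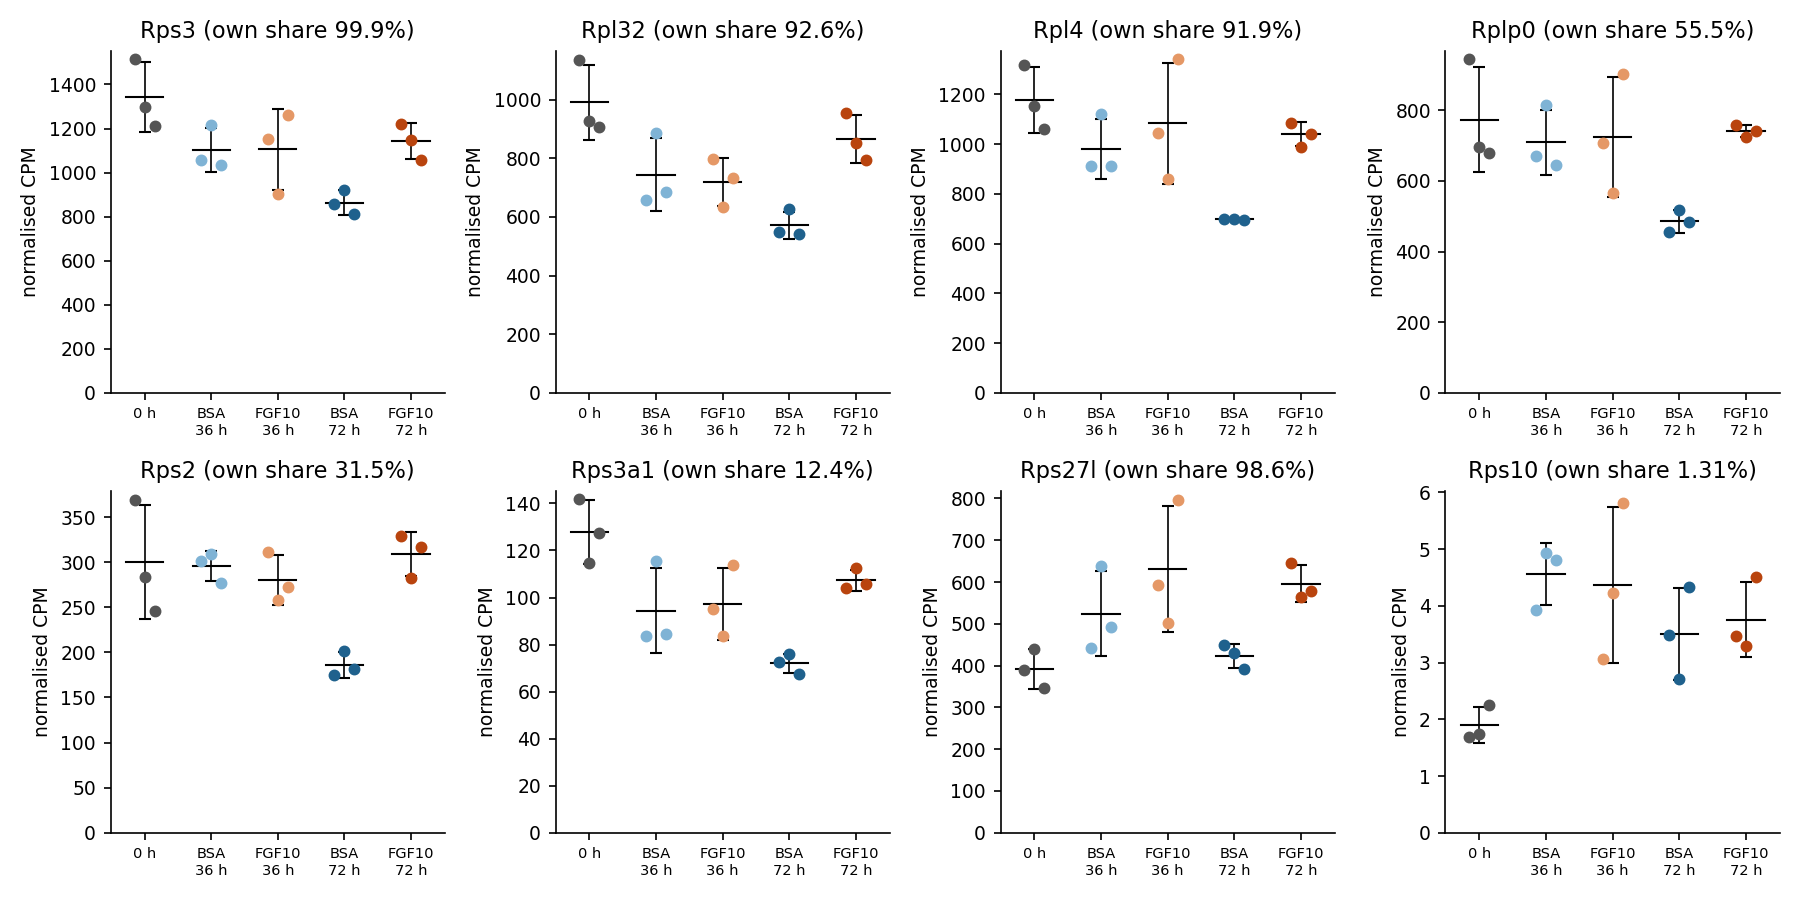
Normalised CPM of 8 members in each of the 15 libraries. Points are libraries, lines group means and bars SD (n = 3). Rps3, Rpl32, Rpl4, Rplp0, Rps2 and Rps3a1 have their lowest mean in BSA 72 h, Rps27l has its highest means in the FGF10 groups, and the sparse Rps10 row has its lowest at 0 h.

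The second question is how the later groups differ from the start. The 4 comparisons use the same 0 h libraries and are given side by side, with no overlap drawn between them. Against 0 h the members fell mainly in BSA 72 h, where 23 of 85 fell and 2 rose against 13% and 12.2% of all genes. In BSA 36 h 5 fell and 7 rose (14.4% and 12.7% of all genes), in FGF10 36 h 7 fell and 19 rose (20.5% and 19.3%), and in FGF10 72 h 1 fell and 4 rose (16% and 13.8%). Of these falls, 4 in BSA 72 h and 2 in each 36 h group were among the 5 tested rows that are processed copies or, for Rps4l, of another type. A gene and its copy, such as Rps3a1 and Rps3a2, can thus both be counted. The members' median log2 differences were -0.33 in BSA 72 h, -0.02 in BSA 36 h, 0.05 in FGF10 36 h and -0.03 in FGF10 72 h.

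In family sums the fall in BSA 72 h was wider, with 45 of 81 lower and 0 higher (13% and 12.2% of all rows of that fit), a median of -0.53 and 2 of 81 above 0. In BSA 36 h 7 sums fell and 0 rose (14.7% and 13%), in FGF10 36 h 7 fell and 7 rose (20.9% and 19.6%), and in FGF10 72 h 2 fell and 1 rose (16.4% and 14.2%). Without single libraries the number of sums that fell in BSA 72 h ran from 19, without BSA 72 h replicate 3, to 59, without FGF10 36 h replicate 4. The number of members that fell ran from 14, without 0 h replicate 1, to 34, without FGF10 36 h replicate 4. Markers moved with this contrast too. The epithelial markers summed to 30575 to 33681 CPM at 0 h and 17050.0 to 18844 in BSA 72 h, with 5 of 12 lower and 2 higher. The adipocyte markers summed to 78.2 to 571 and 433 to 444 CPM, with 1 of 10 tested lower and 5 higher, and of the immune markers 8 of 15 tested were lower and 2 higher. Their part in the fall was not tested.

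Among well-captured members the fall in BSA 72 h was seen in both subunits and the stalk. Rps3 read 859, 923 and 811 CPM against 1517, 1296 and 1210.1 at 0 h, a log2 difference of -0.63 ± 0.16 (adjusted p = 0.00916). Rpl32 read 549.6, 625 and 541 against 1136, 928 and 907 (-0.79 ± 0.16, adjusted p = 0.00238). Rpl4, a core protein of the large subunit whose loop lines the exit tunnel, read 701, 701 and 694 against 1319, 1154 and 1059.9 (-0.75 ± 0.17, adjusted p = 0.00438). None of these groups overlapped, and 7 of the 15 tested members with an own share of at least 80% fell, against 13% of all genes. Rps9, Rpl41 and Rplp2 were among the others.

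The stalk proteins, which recruit the elongation factors, gave mixed calls. Rplp0 read 454, 518 and 485 CPM in BSA 72 h and 944, 696 and 679.8 at 0 h, and fell by 0.67 ± 0.18 on the log2 scale (adjusted p = 0.0139). The call was lost without 0 h replicate 1, without BSA 72 h replicate 2_1 and with a replicate block, where the adjusted p reached 0.0647. Rplp2 fell by 0.48 ± 0.16 (adjusted p = 0.0363). Rplp1 gave -0.60 ± 0.22 with an adjusted p of 0.0626 and was not called, though its groups did not overlap.

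Rps3a1 fell by 0.83 ± 0.15 (adjusted p = 0.000911), from 128 ± 13.5 to 72.0 ± 4.17 CPM, and Rps2 by 0.69 ± 0.15 (adjusted p = 0.00373), from 299.8 ± 63.2 to 186 ± 14.1 CPM. The processed copy Rps3a2 had the smallest adjusted p of the members, 0.000715, with a log2 difference of -0.84 ± 0.15. Rpl22l1, a paralog of Rpl22, read 11.1, 8.19 and 8.20 CPM against 12.2, 31.6 and 18.8 at 0 h and fell by 1.17 ± 0.25 (adjusted p = 0.00332). This value, the largest fall among the 85 tested members, rests on 0 h replicate 2, without which it was -0.75 and still called. In family sums the smallest adjusted p was that of Rpl3, a core protein at the peptidyl transferase centre, which read 883, 943 and 875 CPM against 1878, 1648 and 1506 at 0 h (-0.90 ± 0.15, adjusted p = 0.000466). The own row of Rpl3 held 3.75% of these counts.

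Members with roles outside the ribosome or in disease had mostly small own shares, and their sums carry more counts than their rows. Rps19, the gene most often mutated in Diamond-Blackfan anaemia, read 853, 915 and 823 CPM as a sum in BSA 72 h against 1581, 1321 and 1283 at 0 h (-0.69 ± 0.19, adjusted p = 0.015), while its own row gave -0.54 with an adjusted p of 0.0639. Rpl11, the partner of Rpl5 in binding Mdm2, fell as a sum by 0.60 ± 0.15 (adjusted p = 0.00825), and its own row gave -0.30 (0.434). Rps27a, made as a fusion with ubiquitin, and Rpl10, which joins the large subunit last, fell as sums by 0.56 (adjusted p = 0.0209) and 0.57 (adjusted p = 0.00591). With each of the 15 libraries left out in turn, the sums of Rpl11 and Rpl10 were called in 15 fits, that of Rps19 in 12 and that of Rps27a in 11.

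The own rows of Rps27a and Rpl10 gave 0.09 and 0.11, with adjusted p values of 0.808 and 0.643. Rpl5, Rps26, Rpl13a, Rpl38, Rpl39, Rpsa and Rps4x were called in BSA 72 h against 0 h neither by row nor by sum. Among these, Rpl38, which is needed for Hox gene translation in embryos, gave 0.28 ± 0.38 by row and -0.33 ± 0.21 by sum, and Rpsa, the laminin receptor precursor, -0.43 ± 0.16 and -0.45 ± 0.18. By subunit, 14 of 50 large-subunit rows and 9 of 35 small-subunit rows fell, and 1 of each rose. Of all genes 13% fell and 12.2% rose. These rows include the 5 tested processed copies or, for Rps4l, rows of another type, of which 4 fell.

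In FGF10 72 h, Rps3 read 1223, 1149 and 1058 CPM and Rpl4 1086, 991 and 1043, ranges that overlapped those of 0 h. Of the 15 tested members with an own share of at least 80%, 0 fell in that comparison and 1, Rps27l, rose. Of all genes 16% fell and 13.8% rose. In the sums Rpl3 and Rps28 fell, by 0.48 and 0.64 on the log2 scale. From 36 h to 72 h within the BSA arm 0 members and 0 sums were called in edgeR in either direction (all genes 0.325% higher and 0.143% lower, all sums 0.304% and 0.118%). The members' median was -0.31, and 27 of 85 had an unadjusted p under 0.05 by edgeR, against 2904 of 18140 genes. Limma voom called 21 members lower and DESeq2 2, and the shares of all genes by these tools are not given. Within the FGF10 arm 0 members and 0 sums were called in edgeR (all genes 1.42% and 0.491%, all sums 1.45% and 0.501%). The members' median was -0.13, and 12 had an unadjusted p under 0.05 by edgeR, against 3048 of 18140 genes. There limma voom called 1 higher and DESeq2 1 lower.

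The 36 h rises against 0 h lay mainly in rows that hold few of their family's counts. In FGF10 36 h 14 of the 40 members with an own share under 10% rose, and 2 of the 15 with an own share of at least 80%. Of all genes 19.3% rose there. In BSA 36 h 6 of the 40 and 0 of the 15 rose, against 12.7% of all genes. Rps10, a protein at the mRNA entry that is mutated in Diamond-Blackfan anaemia, shows how far the readings parted. Its own row read 3.07, 4.22 and 5.82 CPM in FGF10 36 h and 1.69, 1.74 and 2.26 at 0 h, a rise of 1.20 ± 0.28 on the log2 scale (adjusted p = 0.00364). Its family sum read 288, 248 and 303 CPM against 351, 326 and 277, a log2 difference of -0.19 with an adjusted p of 0.288. In BSA 72 h its row rose by 0.88 (adjusted p = 0.0302) while its family sum fell by 0.61 (adjusted p = 0.00384). The call of the row in BSA 72 h was lost without each of 4 libraries (0 h replicates 1 and 2 and BSA 72 h replicates 2_1 and 3), and that of the sum in 0 of 15 such fits.

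Rpl12, part of the stalk base, rose on its own row by 1.29 ± 0.21 in FGF10 36 h (adjusted p = 0.00024) and by 0.98 ± 0.21 in BSA 36 h (adjusted p = 0.00257), with an own share of 3.87%. The adjusted p of its family sum was 0.0945 and 0.795 in these comparisons. Rpl27 rose by 1.17 ± 0.19 in FGF10 36 h (adjusted p = 0.000231), and its sum had an adjusted p of 0.0716. Rpl30 rose both ways in FGF10 36 h, by 0.80 ± 0.18 on its row (adjusted p = 0.00247) and by 0.47 ± 0.14 in its sum (adjusted p = 0.0135). Of the 24 own rows called in FGF10 36 h among the 81 with both values, 11 were called in the same direction by the sum.

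Falls at 36 h were fewer than rises on own rows, and some stood in both readings. Rps28, a small-subunit protein at the mRNA exit, read 9.73, 9.76 and 9.36 CPM in FGF10 36 h against 19.7, 20.999 and 10.5 at 0 h (-0.82 ± 0.23, adjusted p = 0.0101), and its sum fell by 1.21 ± 0.18 (adjusted p = 0.000151). The groups overlapped in neither reading.

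**Figure D4:**
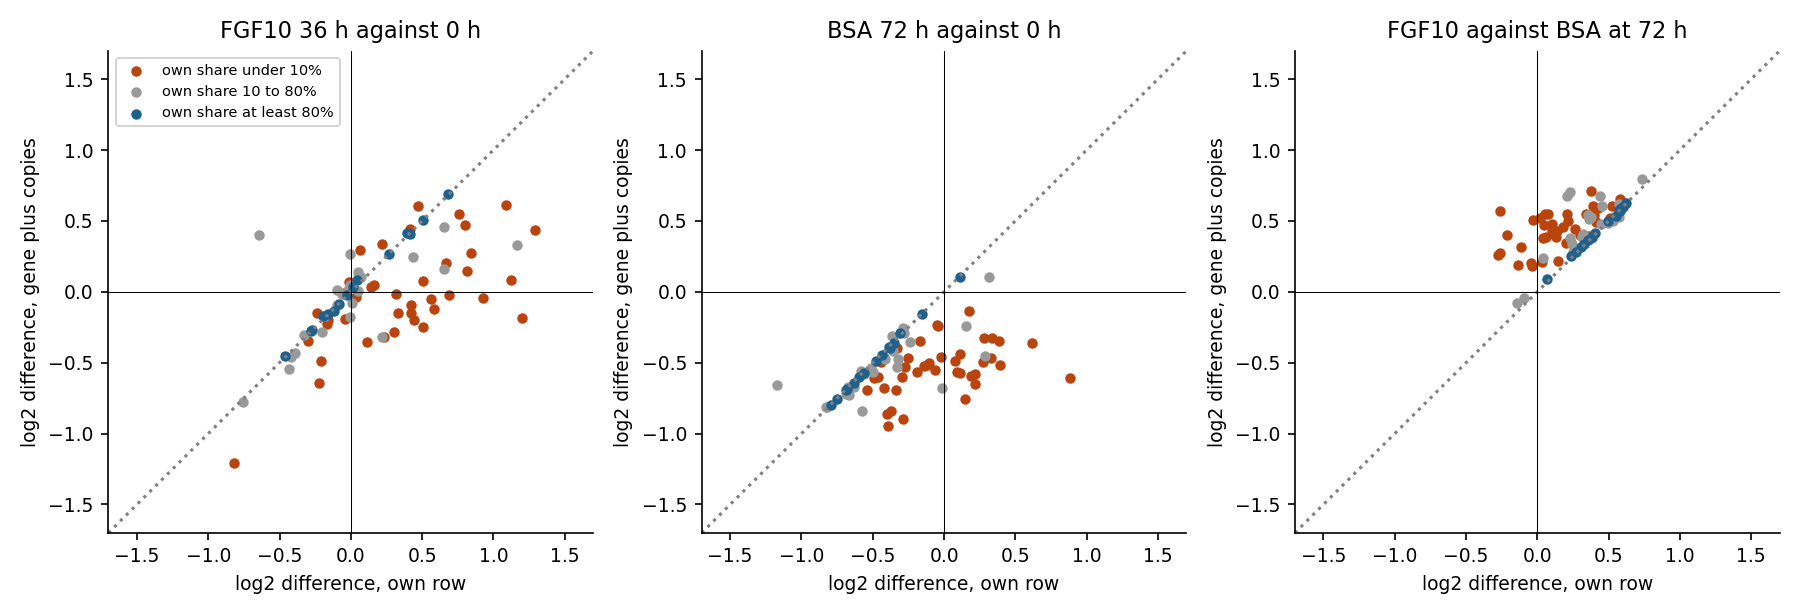
Log2 difference on the gene's own row (x axis) against that of the gene plus its processed copies (y axis) for 3 comparisons, 1 point per tested coding member with both values, coloured by own share. Members with an own share of at least 80% lie on the dotted line of equality, while many with an own share under 10% lie below it in the comparisons with 0 h.

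Paralogs with a high own share can be read directly. Rps27l read 594, 501 and 796 CPM in FGF10 36 h and 647, 564 and 578 in FGF10 72 h, against 389.5, 441 and 347 at 0 h, and no library overlapped. It rose by 0.68 ± 0.18 (adjusted p = 0.00866) and 0.60 ± 0.18 (adjusted p = 0.0214), the latter call being lost without 0 h replicate 4 and without FGF10 72 h replicate 2. In BSA 36 h Rps27l was not called against 0 h. Its family sum there read 448.7, 648 and 498 CPM, each above the 396, 448.6 and 350 at 0 h. In BSA 72 h the Rps27l row read 448, 429 and 393 CPM, overlapping 0 h (0.11 ± 0.18, adjusted p = 0.716). FGF10 against BSA at 72 h gave 0.49 ± 0.18 with an adjusted p of 0.118, so the arms were not shown to differ. Rpl22, known to repress Rpl22l1, read 96.8 to 137 CPM in all libraries and was called in no comparison.

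Within pairs of paralogs the log2 ratio of counts per exon length was compared between the 12 later libraries and the 3 at 0 h by a two-sided exact permutation test, in 4 pairs. Rps27l over Rps27 was higher later by 0.86 (exact p = 0.00879, adjusted p = 0.0264). Rps27 itself holds 44.3% of its family's counts, and with copies added the mean ratio was 4.997 at 0 h and 5.35 to 6.20 later. Without 0 h replicate 2 the difference was 0.67 (exact p = 0.0549, adjusted p = 0.165), and without 0 h replicate 4 it was 0.80 (exact p = 0.044, adjusted p = 0.0733). Rpl22l1 over Rpl22 was lower later by 0.69 (exact p = 0.0132, adjusted p = 0.0264). Its 0 h libraries read -2.81, -1.42 and -2.21, the first of them inside the later range of -3.38 to -2.43. Without 0 h replicate 2 the difference was -0.32 (exact p = 0.165), and without 0 h replicate 4 -0.72 (exact p = 0.0549, adjusted p = 0.0733), so neither pair passed without either of these libraries. With copies added that ratio was -0.35 at 0 h, -0.85 in BSA 72 h and -0.28 to 0.22 in the other groups, and the family sum of Rpl22l1 was lower than at 0 h in BSA 72 h alone among the 4 later groups. The ratios Rpl7l1 over Rpl7 (0.22, exact p = 0.112) and Rps4l over Rps4x (0.32, exact p = 0.174) did not pass. Between FGF10 and BSA no pair passed, and 3 libraries against 3 cannot give an exact p under 0.1.

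**Figure D5:**
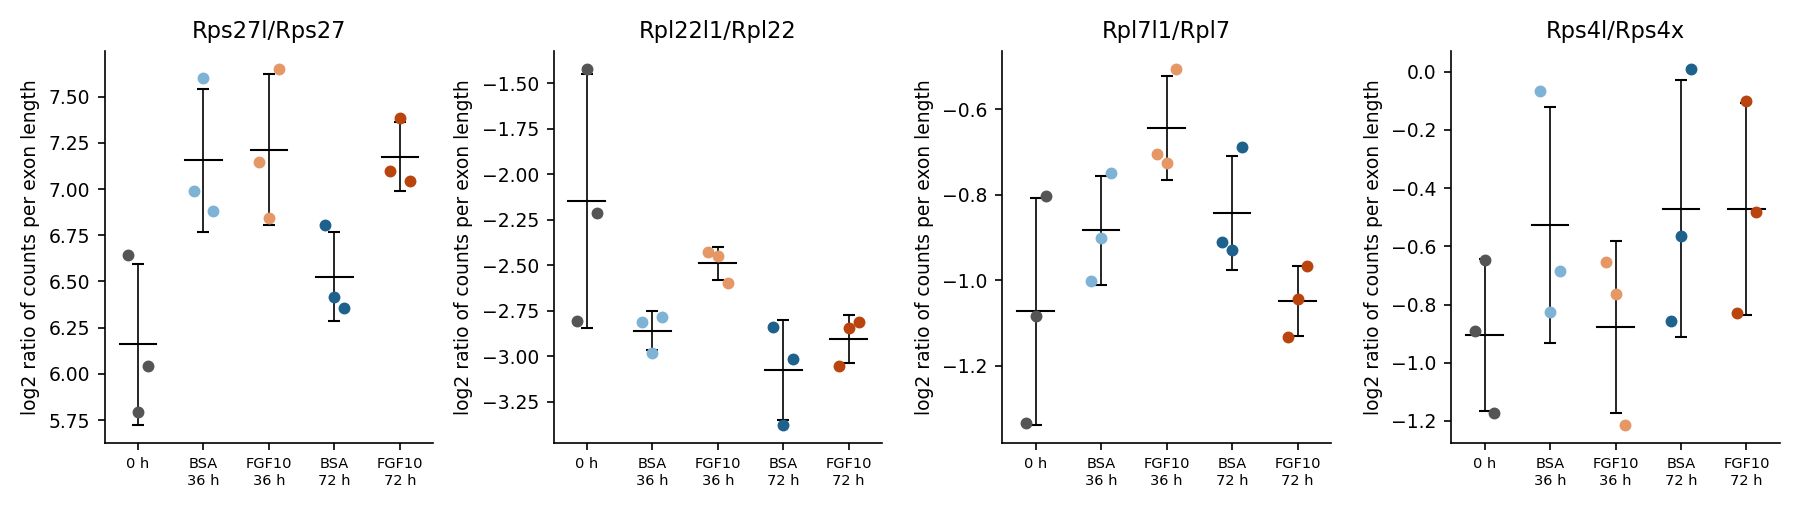
Log2 ratio of counts per exon length of 4 paralogs to their partners, by library. Points are libraries, lines group means and bars SD (n = 3). The Rps27l over Rps27 ratio has its lowest mean, 6.16, at 0 h, and the Rpl22l1 over Rpl22 ratio its highest, -2.15, also at 0 h.

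The promoters of these genes were read from the RefSeq table of the assembly GRCm38.p6, which held 63 of the 83 coding members, each with 250 bases before and 50 after the annotated start. A pyrimidine tract, here a C followed by at least 5 bases that are C or T, began within 20 bases of the start in 39 of 63 members (61.9%) and in 32.5% of all 27018 promoters. The motif CCGGAAG, on either strand, lay in 39.7% of members and 9.12% of all, AAGATGGC in 7.94% and 2.88%, and TATAAA in 9.52% and 14.2%. These are matches of letters and not shown sites. Promoters of 6 members that fell in BSA 72 h follow, to show a tract where there is one, from 40 bases before to 20 bases after the start, 5′ to 3′ on the gene's strand, with the tract in capitals.
Rpl4: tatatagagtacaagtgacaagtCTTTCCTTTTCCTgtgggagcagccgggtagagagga
Rplp2: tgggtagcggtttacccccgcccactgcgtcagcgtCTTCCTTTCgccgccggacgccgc
Rps9: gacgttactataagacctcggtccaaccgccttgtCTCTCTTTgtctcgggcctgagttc
Rps2: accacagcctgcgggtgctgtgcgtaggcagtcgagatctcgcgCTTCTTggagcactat
Rps3: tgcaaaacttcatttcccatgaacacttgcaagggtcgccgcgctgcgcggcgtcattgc
Rps3a1: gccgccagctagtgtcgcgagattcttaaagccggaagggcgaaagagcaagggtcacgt

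These windows lie at chr9:64173347-64173406 (plus strand) for Rpl4, chr7:141447611-141447670 (plus strand) for Rplp2 and chr7:3704001-3704060 (plus strand) for Rps9. They lie at chr17:24720023-24720082 (plus strand) for Rps2, chr7:99483690-99483749 (minus strand) for Rps3 and chr3:86142649-86142708 (minus strand) for Rps3a1. Rpl4, Rplp2, Rps9 and Rps2 carry a tract in this window and Rps3 and Rps3a1 show none. The tract of Rpl4, of 13 bases, begins at position -17 from the annotated start and so ends before it. A tract in the window is therefore not shown to open the messenger RNA. Whether tracts and the fall are related was not tested. In the gene table, which uses GRCm39, Rpl4 spans chr9:64080657-64085948 and Rps3 chr7:99127103-99132945. The 2 sets of coordinates belong to different builds and were not converted.

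Other genes of ribosome production were read from lists. Of 30 ribosome biogenesis genes, which process ribosomal RNA and assemble subunits, 23 rose and 0 fell in FGF10 36 h against 0 h, with a median log2 difference of 0.62, where 19.3% of all genes rose and 20.5% fell. In BSA 36 h 14 rose and 0 fell (12.7% and 14.4% of all genes), in FGF10 72 h 8 and 0 (13.8% and 16%) and in BSA 72 h 3 and 1 (12.2% and 13%). The list summed to 3594 CPM in FGF10 36 h replicate 4, to 2952 and 2703 in the other FGF10 36 h libraries, to 2351 to 2537 in BSA 36 h and to 1912 to 1965 at 0 h. Without replicate 4 of FGF10 36 h 23 still rose in that group, and 16, 15 and 5 in BSA 36 h, FGF10 72 h and BSA 72 h. Gnl3, or nucleostemin, read 134, 132 and 138 CPM in FGF10 36 h and 57.8, 69.6 and 74.6 at 0 h (1.00 ± 0.12, adjusted p = 2.19e-05), and Gar1, of the box H/ACA particle, rose by 1.12 ± 0.14 (adjusted p = 2.48e-05). With FGF10 against BSA at 36 h 0 of the 30 rose and 0 fell, against 0.954% and 1.39% of all genes, with a median of 0.27. At 72 h 3 rose and 0 fell with FGF10 against BSA, where 3.01% and 2.98% of all genes did. These were Dkc1, Ncl and Nop58, higher by 0.74, 0.60 and 0.51 on the log2 scale. Their calls held in 12, 10 and 8 of the 15 fits without 1 library. Myc, which drives many of these genes, read 58.7, 61.3 and 66.6 CPM in BSA 72 h and 117, 76.2 and 106 at 0 h and fell by 0.68 ± 0.18 (adjusted p = 0.0113).

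Of 77 tested mitochondrial ribosomal protein genes, the separate set that serves the ribosomes of mitochondria, 49 rose and 0 fell in FGF10 36 h against 0 h. In BSA 36 h 16 rose and 0 fell, in FGF10 72 h 6 and 0 and in BSA 72 h 2 and 1. Of all genes 19.3% rose and 20.5% fell in FGF10 36 h, and 12.7% and 14.4% in BSA 36 h. The shares were 13.8% and 16% in FGF10 72 h and 12.2% and 13% in BSA 72 h. With FGF10 against BSA 0 rose and 0 fell at 36 h (0.954% and 1.39% of all genes). At 72 h 2 rose and 0 fell (3.01% and 2.98%). The mitochondrial ribosomal protein genes took 1.045% of all counts in FGF10 36 h replicate 4, against 0.584 and 0.577% in the other libraries of that group and 0.618 to 0.655% in BSA 36 h. Without that library 25 rose and 3 fell in FGF10 36 h, 41 rose in BSA 36 h, 26 rose and 4 fell in FGF10 72 h, and 5 rose and 5 fell in BSA 72 h. Without 0 h replicate 2 the rises in BSA 36 h numbered 5. Among 23 other genes of the TOP class, mostly translation factors, 5 fell and 0 rose in BSA 72 h against 0 h (13% and 12.2% of all genes). Among them was the elongation factor Eef1a1, which fell by 0.73 ± 0.16 (adjusted p = 0.00412). In FGF10 36 h 5 rose and 5 fell, near the 19.3% and 20.5% of all genes. Of 25 genes of the mTORC1 pathway 6 rose and 1 fell in BSA 36 h (12.7% and 14.4% of all genes). In FGF10 36 h 9 rose and 6 fell (19.3% and 20.5%), in BSA 72 h 6 and 2 (12.2% and 13%). In FGF10 72 h 6 rose and 4 fell (13.8% and 16%). Of 14 tested ribosomal protein chaperones and late assembly factors 7 rose in FGF10 36 h (19.3% of all genes) and 1 in BSA 72 h (12.2%).

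Members with a high own share also varied together most. The median of a member's correlations with the other members, on log2 CPM over the 15 libraries, was 0.60 for members with an own share of at least 80%, 0.54 for those between 10 and 80% and 0.35 for those under 10%. The points share libraries, depth and group, so these are descriptions. Many rows with an own share under 10% also hold few counts, and the part of this in their lower correlations was not tested. Outside the family, of 6655 candidate genes the one most alike to the members' median was Zmat2 (Pearson correlation 0.88 over 15 libraries). It was followed by the proteasome gene Psmb1 (0.87), the oxidative phosphorylation genes Atp5j (0.86), Cox8a (0.86), Cox6b1 (0.85), Cox6a1 (0.83) and Ndufs6 (0.82), and by Cnbp (0.82), Capzb (0.82) and Elob (0.81).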

How the data were processed

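Fragment counts per gene were deposited as 1 table for the 15 libraries. Per the file headers, the authors counted read pairs over exons by gene name with featureCounts 2.0.1, with no strand option, so overlapping antisense genes cannot be separated although the labels name a stranded kit. Per the submitters' processing notes, cutadapt 1.9.1, HISAT2 2.2.1, HTSeq, DESeq2 and the build GRCm39 were used, with no role given. The recorded command holds no option to count fragments with several placements.

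Counts were tested with edgeR 4.0.16 (R 4.3.3, quasi-likelihood, TMM, low-count filter with a minimum of 10, Benjamini-Hochberg over all 18140 genes, threshold 0.05), with all 5 groups in 1 fit, and CPM is normalised by TMM. Library totals ran from 11965322 to 24261233 counts. Every group has 3 libraries, spread is given as SD or SE, and confidence intervals are not given. Copies were found with blastn 2.17.0 against GENCODE M21 transcripts (at least 80% identity over at least 100 bases) or by a -ps name. Scripts were tested on simulated data.

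Alternatives were limma 3.58.1 (voom), DESeq2 1.42.0, its size factors, no filter, a replicate block, the compared groups alone, -ps rows or all copies added, the pooling of replicates 2_1 and 2_2 of BSA 72 h, TMM without ribosomal protein genes, and each library left out. The family sums, their own alternatives, the lists and paralog ratios without single libraries and the classes by own share were chosen after seeing the data. Members and lists were chosen with earlier results of these data known. Named genes were a panel, up to 5 called members of smallest adjusted p per direction and comparison with the extremes, the 5 highest and lowest levels, members failing the filter, up to 3 called genes per list, Myc, and the 10 genes most alike. Rpl23a, Gar1 and other genes outside this rule were chosen after their values were seen. Some genes that the rule names are not reported here.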

Additional observations from a re-analysis of the deposited data

How the results depend on the processing

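Counts of calls depend on the processing, and the cause was not tested except where fewer libraries or other rows explain it by construction. Shares of all rows are given above for edgeR with all copies added. For the other alternatives, here and above, the shares of all genes called are not given, so their counts cannot be set against all genes. All counts are members called unless sums are named, and each comparison with 0 h is named by its later group. FGF10 against BSA at 72 h called 37 higher when these groups were fitted alone, 33 with limma voom, 14 with DESeq2, 10 with -ps rows added, 12 with all copies added and 0 with BSA 72 h 2_1 and 2_2 summed. The sums gave 65 with voom and 0 with these libraries summed.

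For BSA 36 h the calls were 4 higher with DESeq2 size factors, 3 lower with no filter, 4 higher and 3 lower with the libraries summed, 4 higher and 1 lower fitted alone, 11 higher and 8 lower with voom, 1 higher with -ps rows and 0 higher with all copies. The sums then gave 4 lower with the libraries summed. For FGF10 36 h they were 4 lower with no filter, 5 higher and 1 lower fitted alone, 11 higher with voom, 11 higher with -ps rows and 7 higher with all copies, and the sums gave 4 higher with voom. For BSA 72 h they were 0 higher with no filter, 1 higher with the libraries summed, 1 higher and 41 lower with -ps rows, and 0 higher and 45 lower with all copies, and the sums gave 29 lower with the libraries summed. For FGF10 72 h they were 2 lower with voom, 2 higher and 2 lower with -ps rows, and 1 higher and 2 lower with all copies, and the sums gave 4 lower with voom. BSA 72 h against BSA 36 h gave 1 lower with no filter, 7 fitted alone, 21 with voom and 2 with DESeq2. FGF10 72 h against FGF10 36 h gave 1 higher with voom and 1 lower with DESeq2.

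Leaving out 1 library at a time, calls ran from 0 to 20 higher for FGF10 against BSA at 72 h, 3 to 10 higher and 0 to 8 lower for BSA 36 h, 8 to 20 higher and 4 to 11 lower for FGF10 36 h, 0 to 3 higher and 14 to 34 lower for BSA 72 h, 3 to 6 higher and 0 to 3 lower for FGF10 72 h, and 0 to 6 lower for BSA 72 h against BSA 36 h. The sums ran from 0 to 39 higher for FGF10 against BSA at 72 h, 0 to 1 higher and 2 to 11 lower for BSA 36 h, 1 to 17 higher and 3 to 14 lower for FGF10 36 h, 19 to 59 lower for BSA 72 h, and 0 to 1 higher and 0 to 5 lower for FGF10 72 h. The difference in log2 ratio between later libraries and 0 h ran from -1.02 to -0.32 for Rpl22l1 over Rpl22 and from 0.67 to 1.10 for Rps27l over Rps27. Whether replicate numbers pair the libraries was not settled. The deviations of 21 same-number pairs had correlations from -0.16 to 0.45, with a median of 0.03, and 9 were over 0.1. The 69 pairs with another number had a median of -0.01. With 3 libraries per group this check cannot exclude shared cultures or batches. With a replicate block 4 fell in FGF10 36 h and 1 rose in BSA 72 h, and the adjusted p of Rplp0 in BSA 72 h was 0.0647.

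With -ps rows the members' share of counts was 2.60, 2.50, 2.57, 1.99 and 2.45% in 0 h, BSA 36 h, FGF10 36 h, BSA 72 h and FGF10 72 h, and with all copies 4.004, 3.77, 3.89, 3.04 and 3.74%. Adding rows turned the sign of Rps10 to -0.16, -0.19, -0.60 and -0.13 with -ps rows and -0.16, -0.19, -0.61 and -0.13 with all copies (BSA 36 h, FGF10 36 h, BSA 72 h and FGF10 72 h). Rpl17 turned to -0.032 and -0.028 in BSA 36 h, Rps27a in BSA 72 h to -0.49 and -0.56, Rpl10 to -0.56 and -0.57, Rpl12 to -0.36 with all copies, and Rpl22l1 to 0.0055 in BSA 36 h and 0.044 in FGF10 72 h. The falls of Rps3, Rpl32, Rps3a1 and Rpl7 in BSA 72 h were called under all 26 alternatives run for them. Depth limits the rows with few own counts most, such as Rps10 and Rpl23a.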
